A study of Homo sapiens with 5 samples.

Results

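The genes described here encode 10 subunits of the AP-1 family of transcription factors, namely FOS, FOSB, FOSL1, FOSL2, JUN, JUNB, JUND, ATF3, BATF3 and MAFF. They were taken by symbol from the gene rows of the deposited 80% matrix, and all 10 were found among its 36601 genes. They were picked by name, but earlier results of these data were known when they were chosen. AP-1 is a dimer of basic leucine zipper proteins that binds DNA. The letters TGANTCA, where N is any base, stand here for its sites and are a wider set than TGACTCA. Fos proteins need a Jun partner to bind DNA, whereas Jun proteins can also pair with each other, and ATF3, BATF3 and MAFF are relatives that pair with Jun or Fos proteins or among themselves. Several of these genes, FOS, FOSB, JUN, JUNB and ATF3 among them, are immediate early genes whose transcription rises within minutes of growth factor or stress signals. FOSL1 is known for its high level in carcinoma cells with active RAS and MAP kinase signalling, and JUN is phosphorylated by the JNK kinases.

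The human cell lines A549, HCC827, H1975, H838 and H2228, all established from lung adenocarcinomas, were grown separately without any drug to near confluency in RPMI medium with serum, dissociated, frozen and mixed in equal parts. Nuclei were run on the 10x Multiome assay, which counts RNA molecules (unique molecular identifiers, UMIs) and open chromatin (ATAC) under one barcode. The droplets were divided into an 80% and a 20% portion with 1 RNA library and 1 ATAC library each, so no difference given here carries a p-value. The portions are parts of 1 set of cells, so a repeat of a value in the 20% library is a technical repeat, and 159 barcodes were called in both.

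The 80% matrix held 6557 nuclei with 95455518 UMIs and 63920767 ATAC counts, and the 20% matrix held 1286 nuclei with 14346346 UMIs and 12850543 ATAC counts. The labels do not tie a nucleus to a line, and nuclei were therefore compared by RNA cluster. The clusters were made without the AP-1 genes, without 4 lists of related genes, and with no step that gave a cluster the name of a line. In all, 6 clusters were obtained from 5 lines. Cluster 0 (2495 nuclei) was led by MALAT1 and S100A10, cluster 1 (1459) by ALDH1A1 and AKR1B10, and cluster 2 (1456) by LDHB and ITPR2. Cluster 3 (468) was led by HSP90AA1 and HSPB1, cluster 4 (349) by PVT1 and VIM, and cluster 5 (330) by EGFR and SEC61G. Clusters made from ATAC alone held between 94.9% and 99.3% of each RNA cluster in 1 partner. A level is given below as CPM, the UMIs of a gene per 1000000 UMIs of a cluster, with an exact 95% Poisson interval that covers counting error only. Intervals of levels and of their ratios take UMIs as independent. They are too narrow where a few nuclei hold many of the UMIs of a gene.

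The AP-1 genes were unevenly spread over the clusters. JUN had the widest range, with a level 35.4-fold (95% interval 31.3 to 40.1) higher in cluster 5 than in cluster 2. FOS and FOSB were highest in cluster 1, FOSL1, JUN, ATF3 and MAFF in cluster 5, and JUNB in cluster 4. FOSL2 and JUND differed least between clusters, 1.68-fold and 1.42-fold. Of the 10 genes, 8 differed at least 4-fold between their highest and lowest cluster, against 37.9% of the 16913 genes with at least 100 UMIs. Without 19 nuclei high in JUN, described below, 6 did (37.8% of all genes), and the range of JUN was 19.4-fold. In the 20% library, where BATF3 could not be tested, 4 did (30.3% of all genes). The median fold was 5.78 for the 10 genes and 2.94 for all genes tested. The plot of RNA levels by cluster shows both libraries.

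**Figure D1:**
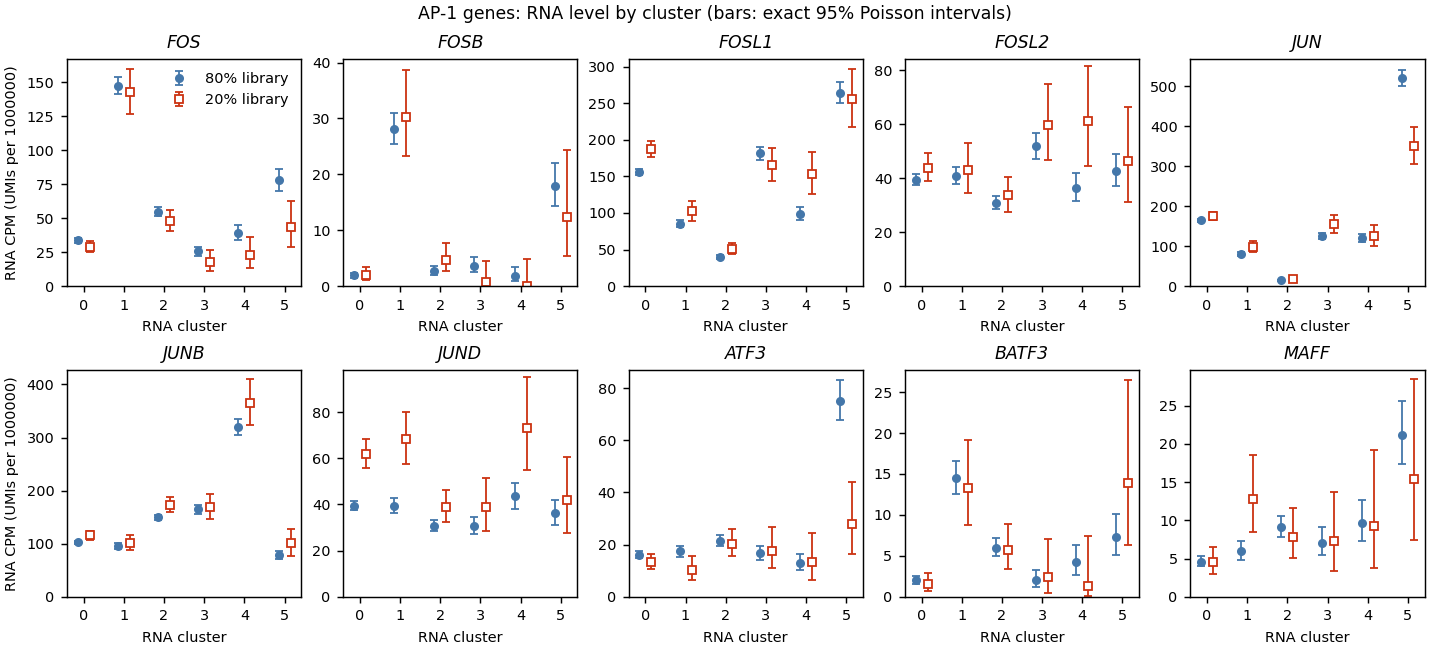
RNA level of each AP-1 gene (vertical axis, CPM, from 0) in the 6 RNA clusters (horizontal axis) of the 80% library (filled circles) and the 20% library (open squares), with exact 95% Poisson intervals as bars. FOS and FOSB peak in cluster 1, JUN in cluster 5 and JUNB in cluster 4 in both libraries, while ATF3 in cluster 5 is at 75.2 in the 80% library and 27.8 in the 20% library.

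Among the Fos genes, FOS, the classical immediate early partner of JUN, stood at 33.7 CPM in cluster 0, 148 in cluster 1, 54.5 in cluster 2, 25.6 in cluster 3, 39.2 in cluster 4 and 77.9 in cluster 5. Cluster 1 exceeded the next cluster 1.89-fold (1.70 to 2.12), and the ratio of every pair of neighbours in this order had a 95% interval above 1, although the intervals of clusters 4 and 0 themselves overlapped. The place of cluster 5 rested on 16 nuclei described below, without which FOS stood there at 30.8. The 20% library gave FOS 142 in cluster 1 and between 17.7 and 48.0 elsewhere, with cluster 2 (48.0) above cluster 5 (43.3). FOSB, a close relative of FOS, was low outside cluster 1 (28.1) and cluster 5 (17.9), with 1.83 to 3.65 in the other clusters. In the 20% library FOSB was again highest in cluster 1 (30.3) and cluster 5 (12.4), and it was at 0 UMIs in cluster 4 and 1 UMI in cluster 3. Cluster 1 thus had the highest level of FOS and of FOSB in both libraries. FOSB lies within the span annotated for ERCC1, and JUNB overlaps that of HOOK2 and MAFF that of PLA2G6. The sources used here do not say whether reads were counted by strand, so reads of such pairs may be mixed.

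The FOSL1 gene, which encodes the Fos protein FRA1, had another order, with 264 CPM in cluster 5, 182 in cluster 3, 156 in cluster 0, 99.1 in cluster 4, 85.5 in cluster 1 and 39.3 in cluster 2, a 6.72-fold range (6.14 to 7.37). No pair of neighbours in this order overlapped within counting error. FOSL2, which encodes FRA2, ranged only from 30.9 in cluster 2 to 51.9 in cluster 3, and the levels in clusters 5, 1, 0 and 4 were not separated from one another. As a result the make-up of the Fos pool changed between clusters. FOS made up 48.8% of the summed UMIs of the 4 Fos genes in cluster 1 and 42.8% in cluster 2, but 9.73% to 22.2% in the others, while FOSL1 made up 28.3% and 30.8% in clusters 1 and 2 and 56.1% to 69.1% in the others. Without the 16 nuclei FOS made up 8.95% and FOSL1 76.4% in cluster 5. These shares are meant for comparison between clusters and not between genes, since capture differs from gene to gene.

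The bases upstream of the starts of FOS and FOSB are shown because these genes shared their highest cluster. They come from the RefSeq promoter table on GRCh38.p14, which held 8 of the 10 genes, and each entry matched the hg38 sequence. The FOS window is chr14:75278578-75278827 and the FOSB window is chr19:45467746-45467995, both on the plus strand and each ending at the base before the start. Capitals mark the letters TATAAA, found on either strand in 10.8% of the 34941 upstream windows of the same length in the table.
FOS: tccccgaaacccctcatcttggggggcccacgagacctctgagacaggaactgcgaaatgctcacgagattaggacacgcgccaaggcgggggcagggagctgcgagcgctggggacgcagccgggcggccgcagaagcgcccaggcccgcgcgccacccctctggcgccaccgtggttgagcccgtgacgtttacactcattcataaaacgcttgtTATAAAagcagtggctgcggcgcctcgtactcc
FOSB: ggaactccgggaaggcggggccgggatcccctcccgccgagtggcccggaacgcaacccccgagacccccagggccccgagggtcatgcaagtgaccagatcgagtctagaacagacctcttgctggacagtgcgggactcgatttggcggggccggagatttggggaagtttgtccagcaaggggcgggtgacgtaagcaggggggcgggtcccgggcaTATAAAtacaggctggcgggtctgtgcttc
In FOS these letters lay 33 to 28 bases before the start and in FOSB 30 to 25 bases before it. Neither window held TGANTCA, TGACGTCA, TGACATCA or a CArG box, the letters bound by serum response factor, which were found in 6.59%, 1.63%, 2.37% and 1.16% of the windows. The longer start peaks over these windows each held 1 CArG box, and that of FOSB also held TGACGTCA once.

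Among the Jun genes, JUN stood at 165 CPM in cluster 0, 80.4 in cluster 1, 14.7 in cluster 2, 125 in cluster 3, 121 in cluster 4 and 521 in cluster 5. Clusters 3 and 4 were not separated, and cluster 5 was 3.17-fold (3.03 to 3.31) above the next. This interval is too narrow, since the variance over the mean of JUN over nuclei of cluster 5 was 22.3. Without the nuclei high in JUN, described below, the levels were 286 in cluster 5 and 159 in cluster 0. The 20% library had the same highest and lowest cluster, with 350 in cluster 5, 176 in cluster 0 and 17.3 in cluster 2. JUNB, which often counters JUN in growth control, had another order, with 320 in cluster 4, 165 in cluster 3, 149 in cluster 2, 102 in cluster 0, 95.3 in cluster 1 and 77.9 in cluster 5. The cluster highest in JUN was therefore the lowest in JUNB, and the cluster lowest in JUN was in the upper part of the order for JUNB. Per JUNB UMI, 6.69 JUN UMIs (6.01 to 7.47) were counted in cluster 5 and 0.0987 (0.0870 to 0.112) in cluster 2. Without the 16 nuclei the ratio in cluster 5 was 4.18 (3.70 to 4.73). In the 20% library the ratios were 3.48 and 0.0998. JUND, the Jun gene known for steady expression, ranged from 30.7 to 43.6, a 1.42-fold range (1.22 to 1.65), and no neighbouring clusters in its order were separated.

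The upstream windows of the 3 Jun genes are shown because JUN and JUNB had opposite extremes and JUND was flat. JUN is given on the minus strand at chr1:58784048-58784297, JUNB on the plus strand at chr19:12791236-12791485 and JUND on the minus strand at chr19:18281623-18281872. Capitals mark TGACATCA in JUN, TATAAA in JUNB and TGACGTCA in JUND.
JUN: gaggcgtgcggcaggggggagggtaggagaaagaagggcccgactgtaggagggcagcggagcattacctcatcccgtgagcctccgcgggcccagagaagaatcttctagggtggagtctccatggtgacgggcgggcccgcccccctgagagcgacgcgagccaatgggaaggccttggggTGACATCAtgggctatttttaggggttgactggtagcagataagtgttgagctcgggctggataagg
JUNB: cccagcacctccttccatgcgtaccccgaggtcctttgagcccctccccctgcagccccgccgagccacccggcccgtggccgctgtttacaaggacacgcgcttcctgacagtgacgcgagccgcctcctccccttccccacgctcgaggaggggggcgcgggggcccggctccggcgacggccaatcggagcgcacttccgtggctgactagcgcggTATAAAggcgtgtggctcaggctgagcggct
JUND: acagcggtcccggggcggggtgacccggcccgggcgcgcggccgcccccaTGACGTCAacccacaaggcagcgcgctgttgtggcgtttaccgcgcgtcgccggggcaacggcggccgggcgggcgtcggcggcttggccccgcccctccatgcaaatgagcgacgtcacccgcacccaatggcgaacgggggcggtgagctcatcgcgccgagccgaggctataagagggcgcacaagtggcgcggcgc
TGACATCA, a variant of the cyclic AMP response element known to bind JUN and ATF proteins, lay 67 to 60 bases before the JUN start. The letters TATAAA lay 31 to 26 bases before the JUNB start, and TGACGTCA lay 200 to 193 bases before the JUND start. None of these 3 windows held TGANTCA.

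The remaining genes had lower counts. ATF3, a stress-induced partner of JUN, was at 13.0 to 21.5 CPM in clusters 0 to 4 and at 75.2 in cluster 5, 3.50-fold (3.03 to 4.03) above the next cluster. In the 20% library its level in cluster 5 was 27.8 (16.5 to 44.01). BATF3, best known from dendritic cells and lymphocytes, was at 14.5 in cluster 1, 7.34 in cluster 5, 5.99 in cluster 2, 4.21 in cluster 4 and about 2 in clusters 3 and 0 (2.05 and 2.01). MAFF, a small Maf protein without an activation domain, was at 4.58 to 9.71 in clusters 0 to 4 and 21.2 in cluster 5. Both BATF3, with 491 UMIs over all nuclei, and MAFF, with 677, were found in fewer than 10% of nuclei (6.56% and 8.56%).

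Nuclei were thinned to 5000 UMIs each to compare their spread, and 101 shallower nuclei were left out. The spread of JUN over nuclei was far wider in cluster 5 than elsewhere. The variance over the mean of JUN was 22.3 in cluster 5, 2.55 in cluster 0 and 1.09 to 1.29 in the other clusters. For FOS it was 11.4 in cluster 5 and 3.26 in cluster 0, for ATF3 7.99 and 3.25, and for these genes in clusters 1 to 4 it was at most 1.40. Within clusters, JUN, ATF3 and FOS were above 99% of the 13251 genes found in at least 5% of nuclei by this measure, at percentiles 99.9, 99.7 and 99.1. FOSL2 (percentile 64.0) and BATF3 (56.8) were near the middle.

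Most of this spread came from a small set of nuclei. JUN reached at least 10 of 5000 UMIs in 19 nuclei, of which 16 were in cluster 5 (of 321) and 3 in cluster 0 (of 2456). This limit was set after the data were seen, so the JUN values of the set are given as a description. The lowest nucleus inside the limit had 11 JUN UMIs, the highest outside it had 9, and the maximum was 77. Without the 16 nuclei of cluster 5 the variance over the mean of JUN there was 1.91, that of FOS 1.35 and that of ATF3 4.89, with 1 nucleus at 16 ATF3 UMIs. The 16 nuclei, 4.98% of cluster 5, held 53.0% of its JUN UMIs, 71.0% of its FOS UMIs, 58.8% of its ATF3 UMIs and 53.3% of its FOSB UMIs, but 5.61% of its FOSL1 UMIs. ATF3 was found in all 16 of them (1 to 21 UMIs, median 4.5) and in 13.1% of the other 305 nuclei of the cluster. FOS was found in 13 of the 16 (0 to 26 UMIs, median 3.5) and in 11.8% of the others. FOSL1 was found in 12 of the 16 and in 68.2% of the others. In the 3 nuclei of cluster 0, ATF3 was at 4, 11 and 19 UMIs and FOS at 1, 15 and 26.

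**Figure D2:**
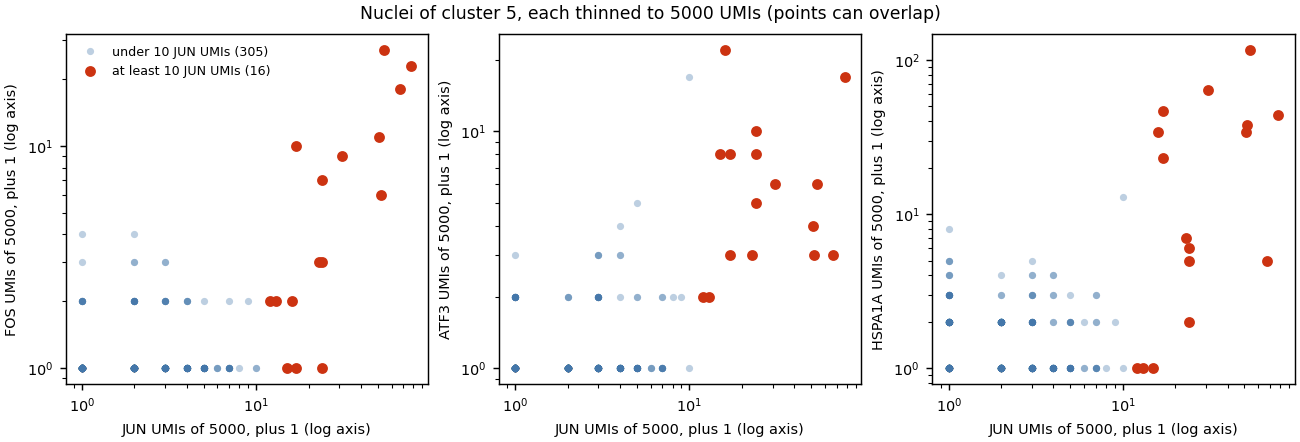
Nuclei of cluster 5, each thinned to 5000 UMIs, with JUN UMIs on the horizontal axis and FOS, ATF3 or HSPA1A UMIs on the vertical axes (log axes, 1 added to each value). Red points are the 16 nuclei with at least 10 JUN UMIs and blue points the other 305, and most red points lie above nearly all blue points for each of the 3 genes.

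Other stress genes were high in the same 16 nuclei, which are named here after their values were seen. HSPA1A, a heat-inducible chaperone of the HSP70 family, was at 4275 CPM in the 16 nuclei and 134 in the others of cluster 5, and its relative HSPA6 at 1902 and 3.19, with UMIs in 14 and 7 of the 16. HSPA1A and HSPA1B are nearly identical in sequence, so reads can be divided between them. HDAC9, a histone deacetylase gene, was at 5381 and 280, GADD45A, a growth arrest gene, at 1066 and 83.3, and PPP1R15A, which restores translation after stress, at 981 and 62.7. Of the other immediate early genes with at least 100 UMIs in cluster 5, 10 of 14 were at least 4-fold higher in the 16 nuclei, against 1.90% of 7594 genes, and of the genes known as AP-1 targets 0 of 9 were. EGR1, which encodes a zinc finger factor, was at 871 and 103, and the phosphatase gene DUSP1 at 796 and 47.8. The 16 nuclei had a median of 9968 UMIs and 1.02% mitochondrial UMIs against 12220 and 1.21% in the others, and Scrublet called 0 of them and 8.28% of the others doublets. Their distal ATAC counts lay in peaks with TGANTCA to 50.0% against 56.1% in the others, with single nuclei from 38.8% to 65.2%. The JUN start peaks held 230 ATAC CPM (171 to 304) in the 16 nuclei and 153 in the others. Start peaks of JUNB were at 106 and 58.0 and that of BATF3 at 50.7 and 17.2. Those of FOS (36.9 and 43.4) and ATF3 (96.8 and 90.3) differed little. The values in the 16 nuclei rest on few counts, 50 for JUN and 8 for FOS. Their intervals are too narrow, as described below for ATAC counts. The part of handling, freezing or nuclei isolation in this pattern was not tested.

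No such nucleus was found in the 20% library, in which 0 of the 50 nuclei of cluster 5 with at least 5000 UMIs had a JUN share of 10 in 5000. Over all clusters, 0 of 1182 nuclei of the 20% library with at least 5000 UMIs did, against 19 of 6456 thinned nuclei in the 80% library. A share like the 4.98% seen in cluster 5 of the 80% library would rest on few of these 50 nuclei. Whether the libraries differ in such nuclei was not tested.

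Without the 19 nuclei, the level of JUN in cluster 5 fell from 521 to 286 CPM (271 to 301), and JUN remained highest there, with a 19.4-fold range. FOS in cluster 5 was at 30.8 in place of 77.9, ATF3 at 35.3 in place of 75.2, FOSB at 10.2 in place of 17.9 and MAFF at 13.2 in place of 21.2. The folds of ATF3 and MAFF were then 2.71 and 3.24, so 6 of the 10 genes differed at least 4-fold, against 37.8% of 16889 genes. FOSL1 in cluster 5 was at 263 in place of 264. Since the nuclei were chosen by JUN, its fall was fixed by that choice, and the nuclei highest in FOSL1 were not left out in the same way.

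The co-variation of AP-1 genes over nuclei of the same cluster was weaker without the 19 nuclei high in JUN. Pearson's r over 6456 thinned nuclei, after removal of each cluster's mean, was above 0.1 for 8 of 45 pairs, and r was 0.17 for JUN and ATF3, 0.14 for FOS and FOSB, 0.14 for ATF3 and MAFF and 0.11 for FOS and JUNB. In cluster 5 alone r was 0.57 for JUN and ATF3 and 0.62 for FOS and FOSB, whereas in clusters 1 to 4 r for these pairs was at most 0.12. Without the 19 nuclei 0 of 45 pairs were above 0.1, and r was 0.04 for JUN and ATF3 and 0.09 for FOS and FOSB. These nuclei were chosen by JUN after the data were seen. A fall of r for JUN and for genes high in the same nuclei was therefore largely fixed by that choice. Within cluster 5 alone 25 of 45 pairs were above 0.1 with the 16 nuclei and 8 without them, and r was then 0.18 for JUN and ATF3 and 0.15 for FOS and FOSB over 305 nuclei. The nuclei share a library and are sparse in these genes, so these values are descriptions and weak ones carry no weight.

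For each gene the 3 genes of most similar variation over nuclei were taken from 13250 candidates. HDAC9 was the most similar gene for JUN (r = 0.18) and ATF3 (0.21), and without the 19 nuclei r was 0.07 and 0.06. EGR1 was the most similar for FOS (0.16, and 0.10 without those nuclei). For FOSL1 the nearest genes were ANLN (0.16), HMGA2 (0.15) and SMC4 (0.14), and these values were the same to 2 decimals without the 19 nuclei. ANLN and SMC4 encode proteins of cell division, and HMGA2 encodes a chromatin architectural protein. For JUNB they were NEAT1 (0.11), FOS (0.11) and BHLHE40 (0.10). FOSL2 and BATF3 had no gene above 0.07, and for JUND the nearest was HDAC9 (0.08).

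Open chromatin at the starts of 8 of the 10 AP-1 genes varied less between clusters than their RNA. The exceptions were FOSL2, with 2.59-fold at its start peak and 1.68-fold in RNA, and JUND, with 2.01-fold and 1.42-fold. The share of all genes with a smaller fold at the start peaks than in RNA is not given here. Over all genes tested, 29.4% differed at least 4-fold at start peaks and 37.9% in RNA. For each gene the ATAC counts of peaks within 1000 bp of an annotated start (GENCODE v44, hg38) were summed and given as ATAC CPM, the counts per 1000000 ATAC counts of a cluster. Even numbers made up 90.1% of the ATAC values above 0, so the counts are not all independent and their Poisson intervals are too narrow. Only FOSB differed at least 4-fold at its start peaks, so 1 of 10 genes did, against 29.4% of 20746 genes. FOSB start peaks stood at 121 in cluster 1, 98.4 in cluster 2, 52.0 in cluster 0, 50.6 in cluster 5, 28.0 in cluster 3 and 18.7 in cluster 4, a 6.44-fold range. Cluster 2 was thus high in open chromatin at FOSB and low in FOSB RNA (2.76). For FOS the start peak was highest in cluster 2 (95.5) and at 60.0 in cluster 1, which had the highest RNA.

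The JUN start peaks, at chr1:58783731-58784771 over the first exon and chr1:58784993-58785816 in LINC01135, were at 158 ATAC CPM in cluster 5 and 63.3 to 80.8 in the others. JUN RNA was lowest in cluster 2, where its start peaks (68.3) were within the range of clusters 1, 3 and 4. JUNB start peaks were at 189 in cluster 4, 127 in cluster 2, 101 in cluster 0 and 60.6 in cluster 5, so the highest and the lowest cluster were those of the RNA. FOSL1 start peaks varied 1.55-fold and were highest in cluster 1 (93.1), whereas FOSL1 RNA varied 6.72-fold. ATF3 start peaks varied 1.37-fold (70.3 to 96.6) and MAFF start peaks 1.32-fold (36.4 to 48.1). The BATF3 start peak was highest in cluster 1 (27.4) like its RNA, and the FOSL2 start peak was also highest in cluster 1 (99.0), at 38.2 in cluster 0. For 5 of 10 genes the cluster highest in RNA was also highest at the start peaks, and over all genes tested this was so for 46.7%. Of the 4 annotated ATF3 starts 3 had no peak within 1000 bp, as had 1 of the 5 of FOS, so the values are those of the starts with a peak.

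**Figure D3:**
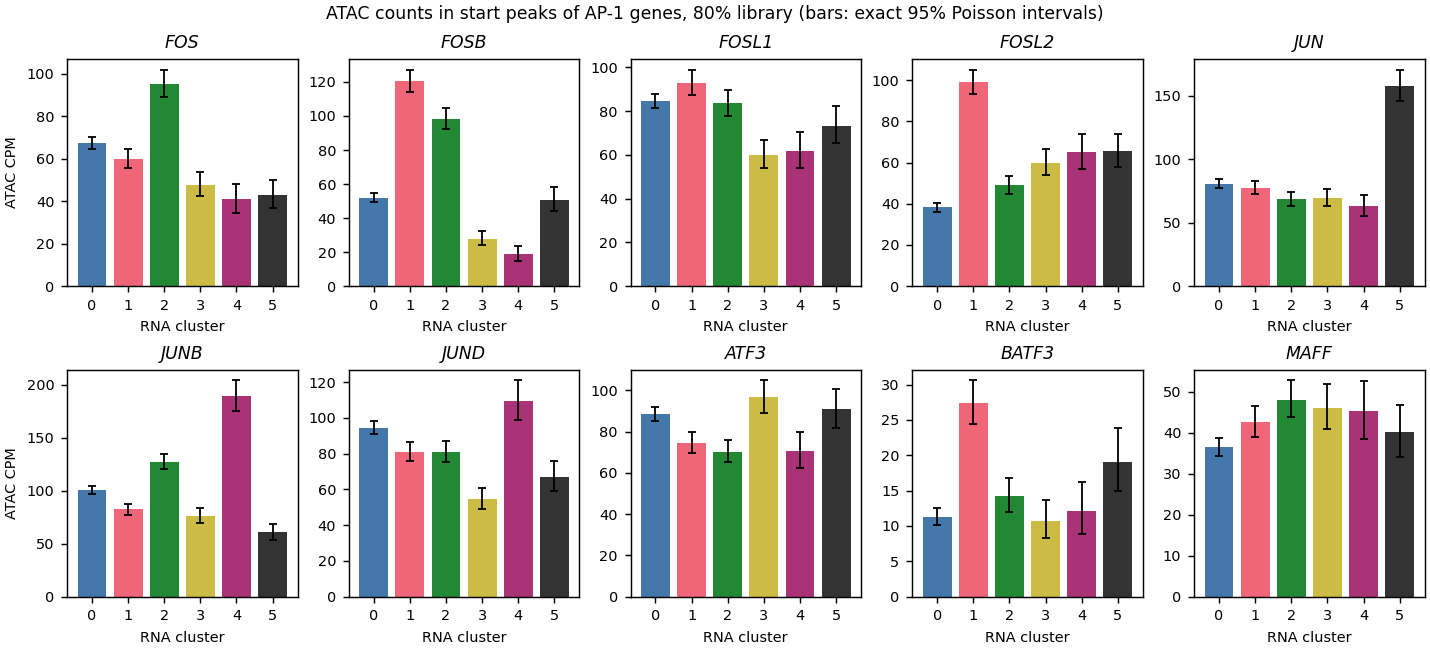
ATAC CPM (vertical axis, from 0) in peaks within 1000 bp of a start of each AP-1 gene, by RNA cluster (horizontal axis) of the 80% library, with exact 95% Poisson intervals. FOSB has the widest range, 18.7 to 121, and JUN stands out in cluster 5 at 158, while FOSL1, ATF3 and MAFF differ at most 1.55-fold.

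Peaks within 100 kb of the AP-1 genes varied between clusters to very different degrees. Of single peaks with at least 100 counts, 63.8% of 100354 differed at least 4-fold between clusters. With each gene's own start peaks left out, 154 of 278 near the 10 genes did (55.4%), a peak near 2 genes being counted for each. The start peaks of ATF3 and BATF3 were thus each counted near the other gene. With start peaks included, 39 of 44 tested peaks near FOSB did (88.6%), while 8 of 31 did near FOSL1 (25.8%), 8 of 19 near JUN (42.1%) and 20 of 45 near JUNB (44.4%). Many peaks near a gene were highest in the same cluster as its RNA, namely 35 of 45 near JUNB in cluster 4, 31 of 44 near FOSB in cluster 1 and 13 of 19 near JUN in cluster 5. Over all tested peaks 15.2%, 18.5% and 13.6% were highest in those clusters. Near FOSL1 only 1 of 31 peaks was highest in cluster 5, and near ATF3 3 of 27 were.

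For each gene the peak within 100 kb with the largest excess in 1 cluster was taken. For JUN it was chr1:58848630-58849520, 64583 bp upstream in an intron of LINC01135, with 72.4 ATAC CPM in cluster 5 and 20.8 to 32.6 in the others. For FOSB it was chr19:45443176-45444024, 23971 bp upstream in an intron of ERCC1, with 70.0 in cluster 1 and 11.9 to 33.1 in the others. Both held TGANTCA once, and 150 bases around these letters are shown because peak, letters and RNA of the same cluster meet there. The JUN window is chr1:58848926-58849075 and the FOSB window chr19:45443688-45443837, both as the plus strand of hg38, with capitals for TGANTCA.
JUN distal peak: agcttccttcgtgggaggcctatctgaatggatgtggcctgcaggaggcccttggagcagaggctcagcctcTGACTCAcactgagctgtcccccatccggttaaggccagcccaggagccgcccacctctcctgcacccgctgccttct
FOSB distal peak: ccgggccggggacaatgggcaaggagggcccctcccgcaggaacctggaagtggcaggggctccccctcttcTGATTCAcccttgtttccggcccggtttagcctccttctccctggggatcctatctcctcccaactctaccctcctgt
The JUN peak held TGACTCA and the FOSB peak TGATTCA. Of the peaks over 1000 bp from any start, 44.1% held TGANTCA in their central 500 bp, so a single match is common. The chosen peaks of JUNB (chr19:12793337-12794224, 123 in cluster 4 and 38.1 to 68.3 elsewhere) and FOS (chr14:75276738-75277667, 84.8 in cluster 2) held no such letters. The remaining chosen peaks, like that of FOS, were not highest in the cluster with the highest RNA of the gene. They were highest in cluster 2 for FOSL1, cluster 4 for FOSL2, cluster 3 for BATF3 and cluster 1 for JUND, ATF3 and MAFF. Those of ATF3 and BATF3 held TGANTCA as well.

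**Figure D4:**
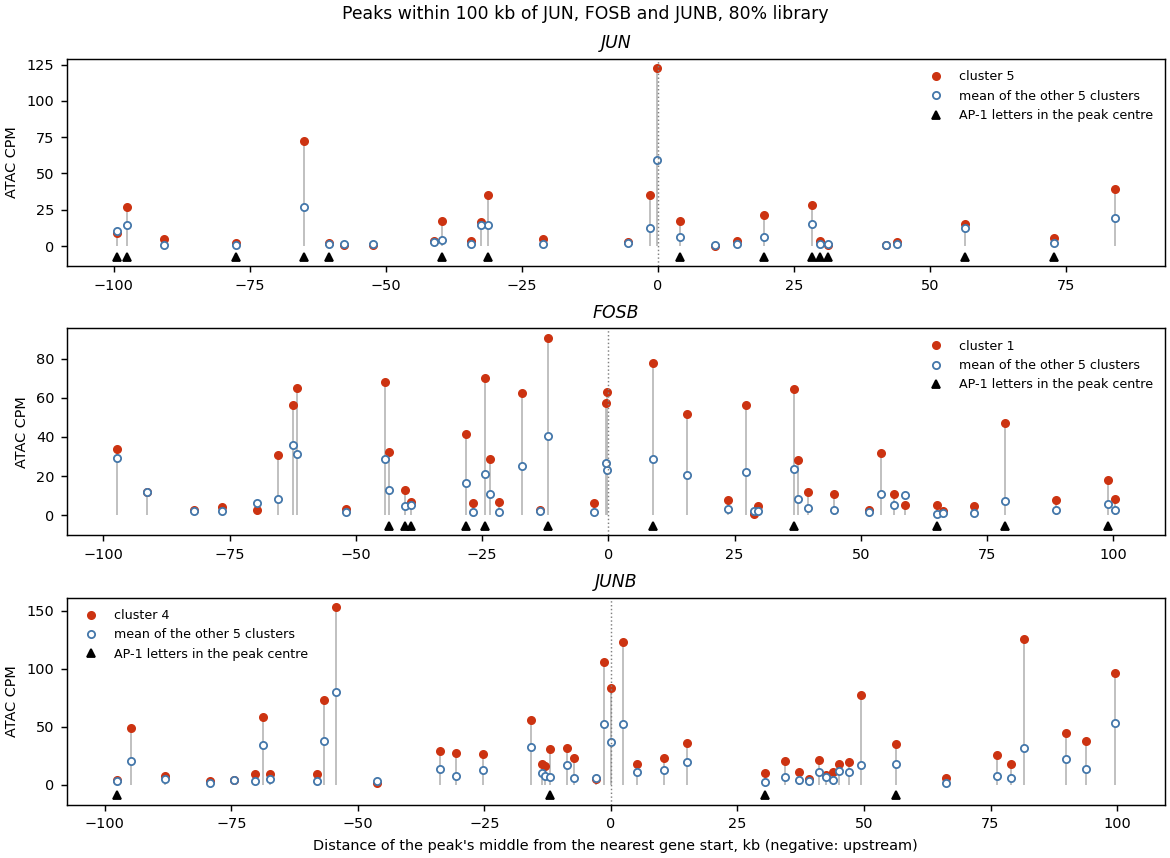
Peaks within 100 kb of the starts of JUN, FOSB and JUNB in the 80% library, by distance from the nearest start in kb (horizontal axis, negative upstream) and ATAC CPM (vertical axis). Red points are the cluster with the highest RNA of the gene, open blue points the mean of the other 5 clusters, and triangles mark peaks with TGANTCA in the centre. In each region most of the high peaks are higher in the RNA-high cluster, not the start peaks alone.

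The wider regions moved with these genes as well. Between 100 kb and 2 Mb from JUN, the 129 peaks together had 2.40 times the ATAC CPM in cluster 5 of the mean of the other clusters, and the JUN start peaks had 2.19 times. The 8 other genes tested there had a median RNA ratio of 3.08, and JUN itself 5.16. Around JUNB the flanking peaks had 1.92 times and the start peaks 2.12 times the mean of the other clusters in cluster 4, and 100 flanking genes had a median RNA ratio of 1.83, with JUNB at 2.71. Around FOSB the ratios in cluster 1 were 1.61 for flanking peaks, 2.43 for start peaks, 1.15 for the median flanking gene and 5.00 for FOSB. For FOS the flanking peaks were at 0.843 and the start peak at 1.02, with FOS RNA at 3.20, and for ATF3, MAFF and FOSL1 in cluster 5 the flanking peaks were at 1.01, 0.967 and 0.825. Whether the clusters differ in the number of DNA copies of these regions was not tested. Neighbouring genes within 100 kb differed at least 4-fold in 21 of 46 cases (45.7%), against 37.9% of all genes tested. GDF15 near JUND was at 22.6-fold and BAIAP2L2 near MAFF at 23.0-fold. Near JUN, AL136985.3 was at 40.6-fold and LINC01135 at 6.08-fold, both highest in cluster 0, and MYSM1 was at 2.33-fold.

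Open chromatin with the AP-1 letters separated the clusters into a higher and a lower group. Of the distal ATAC counts (peaks over 1000 bp from any start), 56.2% in cluster 3, 56.1% in cluster 4, 55.8% in cluster 5 and 53.1% in cluster 0 lay in peaks with TGANTCA, against 43.7% in cluster 2 and 42.7% in cluster 1. The difference between the highest and the lowest cluster was 13.5 percentage points. Over single nuclei with at least 1000 distal counts, the range between the quartiles was 51.0% to 55.4% in cluster 0 and 54.1% to 58.2% over clusters 3 to 5, against 39.6% to 45.5% over clusters 1 and 2. In the 20% library the shares were 54.4%, 44.8%, 45.6%, 58.4%, 57.5% and 56.8% for clusters 0 to 5. In each of 5 classes of GC content clusters 1 and 2 were again the lowest, with 30.5% and 30.6% against 38.4% to 42.7% in the class richest in GC.

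Other letters did not share this order. TGACGTCA, the cyclic AMP response element, was in 0.462% of distal peaks and took 1.08% of distal counts in cluster 1 and 0.939% in cluster 2, against 0.581% to 0.736% in the others. CArG boxes took 2.42% to 2.88% and did not set clusters 1 and 2 apart. In peaks near starts the share with TGANTCA was 9.99% to 13.3%, again lowest in clusters 1 and 2.

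Clusters 1 and 2, the lower group in TGANTCA, were also those with the fewest FOSL1 UMIs per FOS UMI. This ratio was 0.580 (0.541 to 0.622) in cluster 1 and 0.721 (0.656 to 0.793) in cluster 2, and 2.53 to 7.10 in the others. Without the 16 nuclei the ratio in cluster 5 was 8.54 (7.18 to 10.2), above that range. In the 20% library it was 0.718 and 1.06 against 5.89 to 9.32. Clusters 1 and 2 also had the lowest levels of FOSL1 and JUN, but the level of FOS was highest in cluster 1 and, in cluster 2, only below that of clusters 1 and 5, or of cluster 1 alone without the 16 nuclei. Across the 6 clusters r between the log2 level and the TGANTCA share was 0.77 for FOSL1, 0.72 for JUN and -0.65 for FOS, over 6 points of 1 library whose depth differs as well. It was -0.64 for BATF3 and 0.52 for FOSL2, and between -0.34 and 0.31 for the remaining genes. Within clusters, over 6127 nuclei, r was 0.14 for FOSL1, 0.05 for JUN and -0.04 for FOS.

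**Figure D5:**
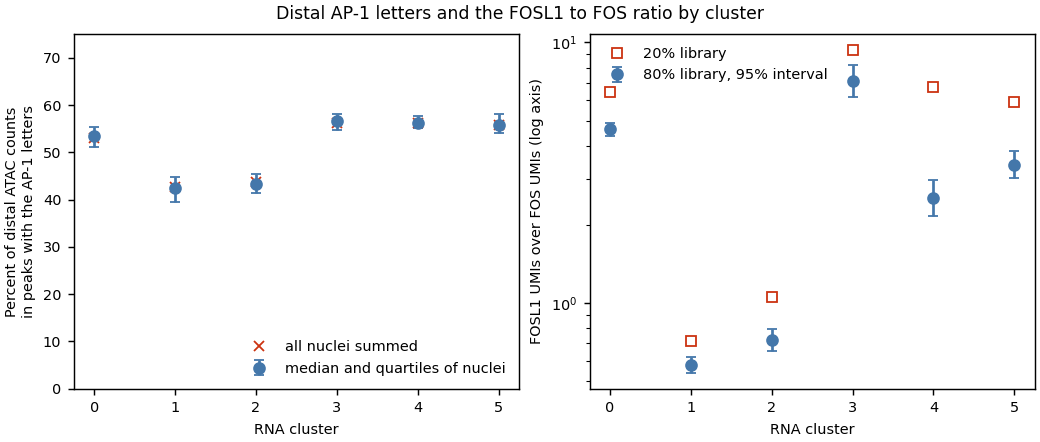
Left, percent of distal ATAC counts in peaks with TGANTCA by RNA cluster of the 80% library, as the median and quartiles of nuclei (circles, bars) and for all nuclei summed (crosses). Right, FOSL1 UMIs per FOS UMI on a log axis, for the 80% library with 95% intervals and for the 20% library (open squares). Clusters 1 and 2 are the lowest in both panels.

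The lists of related genes differed in how much they varied between clusters. Of 15 other AP-1 and related bZIP factors, 8 differed at least 4-fold, with a median fold of 5.14. MAF, which encodes a large Maf protein, had a 42.9-fold range, from only 0.364 CPM in cluster 2 to 15.6 in cluster 0. In the 20% library the range of MAF was 17.9-fold. BATF2 had a 14.8-fold range. That of BATF2 rested on only 149 UMIs, with 2.31 CPM in cluster 0 and 0.156 in cluster 2. It was 4.93-fold in the 20% library. Of 22 other immediate early genes 20 had at least 100 UMIs and 16 of these differed at least 4-fold, with a median fold of 5.22. NR4A3 (20.2-fold, highest in cluster 2 at 24.7) and NR4A1 (17.7-fold, highest in cluster 1 at 50.2) encode orphan nuclear receptors. EGR1 had a 15.7-fold range, from 8.54 in cluster 2 to 134 in cluster 5. Without the 16 nuclei high in JUN, EGR1 in cluster 5 was at 103, below cluster 4 (118). Cluster 4 was also its highest cluster in the 20% library. FOS and NR4A1 were thus highest in cluster 1, while EGR1 was not (52.8).

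Genes upstream of AP-1 varied little. Of 19 kinases and factors only 1 differed at least 4-fold, which was MAPK10, the gene of the kinase JNK3 (4.82-fold, 39.7 in cluster 5). RPS6KA3, the gene of the kinase RSK2, had a 3.25-fold and MRTFA, a coactivator of serum response factor, a 3.06-fold range, and the median of the list was 2.22. Of 18 genes known as AP-1 targets 16 were tested and 12 differed at least 4-fold, with a median of 6.75. MMP13, a collagenase, had an 18.2-fold range and was highest in cluster 3 (12.3 CPM). The background for all these counts is the 37.9% given above.

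Over all nuclei the 2 libraries gave similar levels for most of the 10 genes, with JUND and ATF3 furthest apart. None of the 10 genes differed by 1.5-fold or more between the 20% and the 80% library, against 0.387% of 11892 genes. With equal weight for each cluster ATF3 did, with a ratio of 0.645. JUND was closest to this limit, with 55.3 CPM in the 20% and 37.0 in the 80% library, a ratio of 1.496 (1.38 to 1.62). JUND was higher in the 20% library in all 6 clusters. ATF3 had a ratio of 0.766 (0.664 to 0.880) and FOS of 0.860 (0.794 to 0.930), and the others were between 0.935 and 1.14. By cluster, the 95% intervals of the 2 libraries overlapped for 46 of 60 values, and the highest cluster was the same for 8 of 10 genes. The values without overlap differed by more than these intervals cover. Neither count is set against a share over all genes, so both describe these 10 genes only. With 100 UMIs required, 9 genes could be compared between clusters in the 20% library, and 4 of them, FOS, FOSB, FOSL1 and JUN, differed at least 4-fold, against 30.3% of genes.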

How the data were processed

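Each nucleus of the mixed lines gave RNA and ATAC, and each portion had 1 library of either kind. The authors deposited, for each portion, whole-number counts without normalization (UMIs per gene and ATAC counts per peak) for barcodes already called as cells. The submitters' processing notes name Cell Ranger ARC 2.0.0 and GRCh38. The annotation behind the gene counts is not given in these sources. Peaks had been called separately for each portion, so ATAC values of the portions were not compared peak by peak. The joint matrices of both portions and the long-read table were not used.

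From the deposited counts, 2000 variable genes without the AP-1 genes and the lists were log-normalized, and 30 components, a graph of 20 neighbours and Louvain clusters (Seurat 5.3.0, R 4.3.3) were computed, at the lowest resolution that gave at least 6 clusters. ATAC clusters were made without peaks within 100 kb of the AP-1 genes. Scrublet (scanpy 1.11.5) called 385 of 6557 nuclei doublets in the 80% and 80 of 1286 in the 20% matrix, and they were kept in the main values. Nuclei of the 20% matrix were placed in the 80% cluster with the best correlated mean profile, which put 97.7% of the 80% nuclei in the cluster they came from.

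UMIs were summed per cluster. A fold is the highest over the lowest cluster, with sums under 3 counts set to 3, and genes needed 100 UMIs. Median depth per cluster was 9151 to 17519 UMIs and 6516 to 11522 ATAC counts. For single-nucleus values each nucleus was thinned to 5000 UMIs. The letters were searched on both strands with Python 3.11.15, and the CArG box by its usual consensus. TGANTCA includes TGACTCA, and a CArG box can hold TATAAA, but no other pair of these letters overlaps in definition. Intervals are exact Poisson or binomial at 95%, and of ratios exact conditional ones. The fold step was tested on simulated data.

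The 10 genes and the lists were chosen with earlier results of these data known. Named are the 10 genes, the 2 leading genes of each cluster, the 3 genes most similar to each AP-1 gene, the 3 genes of largest fold of each list, neighbours within 100 kb, the start peaks and 1 nearby peak a gene. Some genes that this rule names are not reported here. The genes named in the 16 nuclei high in JUN were chosen after their values were seen. Alternatives covered the clustering, doublets, depth, shared barcodes, scaling, filters, the start window, the letters and the thinning.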

Additional observations from a re-analysis of the deposited data

How the results depend on the processing

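A fold is the highest over the lowest cluster, so neither a fold nor a count could change direction. Their sizes and the clusters at the extremes are given instead. The 20% over 80% ratios of BATF3 (0.935) and MAFF (1.05) went to the other side of 1 with equal weight for each cluster (1.06 and 0.991), and that of ATF3 went from 0.766 to 0.645, past 1.5-fold. The sign of 11 of 45 within-cluster correlations changed when thinned to 2000 UMIs, all of them at most 0.052 in size. The highest cluster changed in the 20% matrix for BATF3 (from 1 to 5) and FOSL2 (from 3 to 4). The count of 8 genes at least 4-fold apart between clusters was 7 with size factors or with at least 5 clusters required (37.8% and 34.6% of all genes) and 8 with ATAC clusters, without doublets, with the depth filter, without shared barcodes or with a mean over nuclei (37.1% to 41.1%). It was 10 at a resolution of 0.8 against 61.3% of all genes, 8 without a filter against 55.8%, and 8 at 2-fold against 74.6%, which is near the share of the 10 genes. It was 4 in the 20% matrix, where BATF3 could not be tested and JUNB (3.63-fold), ATF3 (2.67-fold) and MAFF (3.42-fold) were under the limit. It was 6 (37.8% of all genes) without the 19 nuclei high in JUN, an alternative chosen after seeing the data. JUNB, at 4.11-fold, lay close to the limit. The difference of 13.5 percentage points in distal counts with TGANTCA was 11.8 for TGACTCA, 12.4 with the letters anywhere in the peak, 13.7 for peaks over 5000 bp from a start, 13.4 with ATAC clusters and 14.5 without doublets, with cluster 3 highest and cluster 1 lowest each time. Of the 70 folds of single genes under the other settings, 68 had the same highest cluster and 62 the same lowest, and JUND changed its lowest cluster most often. Of 45 within-cluster correlations, 25 moved by less than their sampling spread when nuclei were thinned to 2000 UMIs. No paired analysis was possible because each group held 1 library. With 1 library a portion, the spread between cultures was not measured, and BATF3 (69 UMIs in the 20% matrix), FOSB (101) and MAFF (107) limit what the smaller library can show.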
